A study of Mus musculus with 4 samples.

Results

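The genes described here are 39 type I interferon stimulated genes, taken by their symbols from the 31053 genes in the files. They were followed in immune cells of the ischemic hemisphere of C57/BL6 mice after tMCAO, transient occlusion of the middle cerebral artery, a stroke model in which a brain artery is blocked and then reopened. All samples share the strain and the model, no genetic change or drug is named in the labels, and no uninjured samples were analysed here. Leukocytes, recognised by a high level of the surface protein CD45, were sorted 5 days (2 libraries) or 14 days (2 libraries) after the occlusion and sequenced with a droplet method that counts the 3' ends of RNA. How many mice gave the cells of each library is not stated in the labels, so p-values measure the spread between libraries, which may be technical. Age and sex are not given in the sources used here.

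Type I interferons are secreted proteins that bind a receptor made of Ifnar1 and Ifnar2. Kinases on the receptor switch on a complex that holds Stat2 and Irf9 and binds interferon-stimulated response elements (ISRE) in promoters; the genes switched on there restrain viral RNA, sense it, or tune the response itself. Many of these genes are also induced by other stimuli, including interferon gamma, and some, such as the Ifitm genes, are carried by resting leukocytes.

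Of the 39 genes, 31 matched a RefSeq promoter window (build GRCm38.p6, 250 bases before to 50 after the start site). The ISRE core (GAAA, any 2 bases, then GAAA), searched on both strands, was found for 15 of these 31 genes (48.4%), against 3.99% of all 27025 genes with a window. The letters TTCNNNGAA, known as the gamma-activated site (GAS), were found for 6 of the 31 genes (19.4%), against 9.55% of all genes, and in 2 windows they overlapped the ISRE core. A match describes letters and shows no binding. The sequences shown are those of the 4 genes with the ISRE core before the start site that were called higher on day 14 in the most cell classes, with ties settled by the adjusted p. Each is the 250 bases before the start site, 5′ to 3′ along the gene, with capitals for the ISRE core in either orientation. Isg15 (chr4:156200819-156201068, minus strand) held 3 overlapping cores that began 78, 72 and 66 bases before the start site. Bst2 (chr8:71537473-71537722, minus strand) held 2 overlapping cores, beginning 130 and 124 bases before it. Trim30a (chr7:104465194-104465443, minus strand) held 1, beginning 36 bases before it. Ifit3 (chr19:34583279-34583528, plus strand) held 2, beginning 156 and 122 bases before it.
Isg15: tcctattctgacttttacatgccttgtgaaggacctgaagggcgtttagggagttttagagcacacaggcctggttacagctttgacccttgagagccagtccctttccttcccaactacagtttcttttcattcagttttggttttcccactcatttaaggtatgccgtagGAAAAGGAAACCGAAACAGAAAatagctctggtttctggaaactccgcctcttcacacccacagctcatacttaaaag
Bst2: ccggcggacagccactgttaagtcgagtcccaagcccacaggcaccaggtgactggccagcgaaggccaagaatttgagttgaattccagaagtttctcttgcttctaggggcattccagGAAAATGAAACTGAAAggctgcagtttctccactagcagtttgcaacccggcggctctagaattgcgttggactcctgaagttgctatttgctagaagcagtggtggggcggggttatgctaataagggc
Trim30a: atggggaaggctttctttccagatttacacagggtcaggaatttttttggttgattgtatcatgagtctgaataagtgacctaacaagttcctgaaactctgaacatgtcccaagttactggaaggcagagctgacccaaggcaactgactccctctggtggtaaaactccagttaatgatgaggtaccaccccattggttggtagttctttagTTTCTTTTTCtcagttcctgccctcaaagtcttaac
Ifit3: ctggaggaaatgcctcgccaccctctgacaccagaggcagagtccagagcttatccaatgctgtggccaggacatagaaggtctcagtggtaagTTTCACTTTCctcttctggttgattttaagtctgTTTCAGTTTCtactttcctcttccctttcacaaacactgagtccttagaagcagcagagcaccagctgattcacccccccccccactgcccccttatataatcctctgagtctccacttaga

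The libraries held 2313 to 3486 cell barcodes and 9288054 to 13610119 UMIs (unique molecular identifiers, each counting 1 captured RNA molecule), and 61739 to 155399 UMIs per library belonged to the 39 genes. The shallowest barcodes had 500 and 505 UMIs on day 5 and 1180 and 1317 on day 14, and only the day 5 matrix headers name a software version, so upstream handling and day cannot be told apart. Of the 10925 barcodes, 65 barcode sequences occurred in more than 1 library. Marker genes placed 8987 cells in 10 classes; 1353 cells met no gate, and 501 with markers of several lineages were left out. The classes are ranges of a marker score, not types, and 539 placed cells lay within 0.05 of a limit. Cells gated as monocytes or macrophages had a median of 126 to 140 UMIs of that class's markers and 2 to 6 of microglial markers, and cells gated as microglia had 41 to 50 UMIs of microglial markers and 5 to 10 of the monocyte list, which includes the widely carried Lyz2. Markers of neurons, astrocytes and red cells had a median of 0 in every class.

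A cell was counted as responding when it held 3 or more UMIs of 15 core genes of the set (Isg15, Ifit1, Ifit2, Ifit3, Ifit3b, Mx1, Oasl1, Oasl2, Oas1a, Rsad2, Irf7, Ifi44, Usp18, Cmpk2 and Rtp4) after thinning to 1000 UMIs per cell. These shares are descriptions with exact 95% Clopper-Pearson intervals that cover counting error only. Monocytes or macrophages, which enter injured brain from the blood, responded in 12.4% and 11.5% at 5 days against 62.7% and 68.0% at 14 days (61 of 492 and 51 of 445 cells, then 202 of 322 and 422 of 621). Neutrophils, the early granulocytes of an infarct, responded in 10% and 8.33% at 5 days against 59.6% and 76.2% at 14 days (8 of 80 and 11 of 132 cells, then 34 of 57 and 32 of 42). In both classes each day 14 library lay above both day 5 libraries, and the intervals of the days did not overlap. Thinning left out 53 and 51 shallow neutrophils on day 5 and none on day 14; without thinning, at 30 or more core UMIs per 10000, the neutrophil shares were 11.3% and 7.10% at 5 days against 57.9% and 71.4% at 14 days.

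Dendritic cells and microglia lay below these 2 classes on day 14. Plasmacytoid dendritic cells, known as strong producers of type I interferon, responded in 3.45% and 5.26% at 5 days against 26% and 47.1% at 14 days, from 29 to 57 cells per library. Conventional dendritic cells, which present antigen to T cells, responded in 8.50% and 8.93% at 5 days against 28.1% and 33.0% at 14 days. Microglia, the resident macrophages of the brain, responded in 4.92% and 5.84% at 5 days against 20.4% and 29.8% at 14 days. In each of these 3 classes both day 14 shares lay above both day 5 shares, and the intervals of the days overlapped in plasmacytoid dendritic cells. The sort for high CD45 sets which microglia were captured, and 773 and 1285 were counted on day 5 but 211 and 114 on day 14.

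T, NK and B cells also lay below monocytes or macrophages and neutrophils on day 14, and the second T cell library and the first microglial library both lay at 20.4%. T cells responded in 2.13% and 11.4% at 5 days against 16.8% and 20.4% at 14 days (1 of 47 and 5 of 44 cells, then 99 of 590 and 68 of 333); the interval of the second day 5 library, 3.79 to 24.6%, covered both day 14 values. NK cells responded in 2 of 99 and 0 of 82 cells on day 5, the latter allowing a share of up to 3.66% when 3 counts are taken as the limit and up to 4.40% by the exact interval, and in 7.69% and 9.21% on day 14. B cells responded in 0 of 44 and 1 of 54 cells on day 5, the former allowing up to 6.82% and 8.04% in the same way, and in 0.922% and 5.75% on day 14. The B cell libraries of the days overlapped, so a difference was not detectable at this depth. The B cell share includes any free RNA in the droplets; B cells had a median of 2010 and 2030 UMIs on day 14, and monocytes or macrophages 4068 and 4474.

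**Figure D1:**
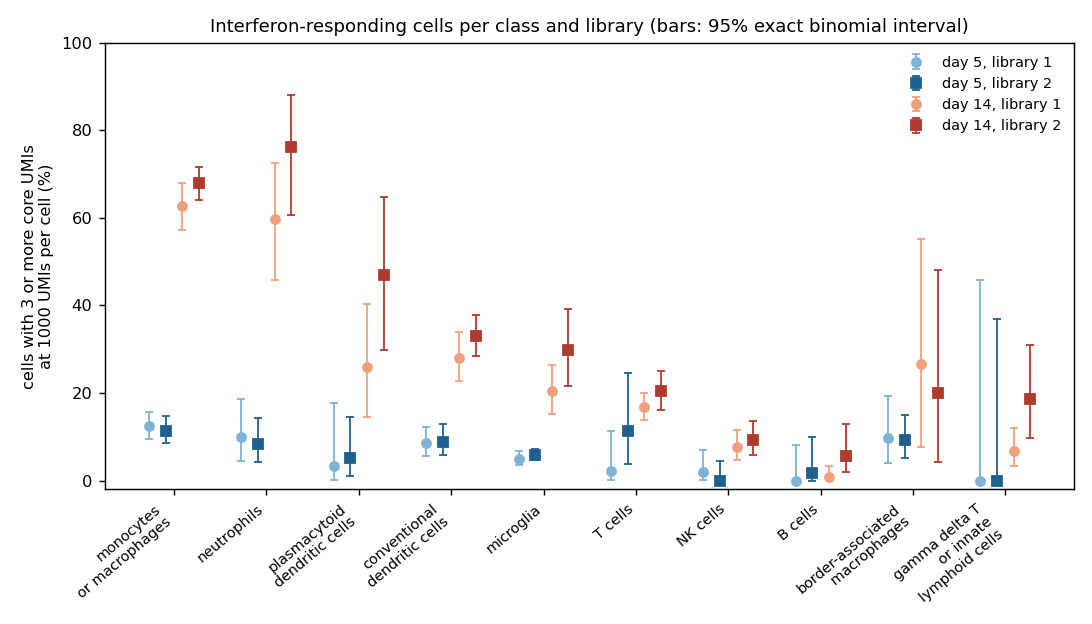
Share of responding cells in percent (3 or more UMIs of the 15 core genes at 1000 UMIs per cell) by class; points are libraries and bars are exact 95% binomial intervals. Monocytes or macrophages and neutrophils lie between 59.6 and 76.2% on day 14, and B cells at or below 5.75%.

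Border-associated macrophages, which line vessels and meninges, as well as gamma delta T or innate lymphoid cells, were too few in some libraries to be tested. The former responded in 7 of 71 and 14 of 152 cells on day 5 and 4 of 15 and 3 of 15 on day 14, and the latter in 0 of 6 and 0 of 8 cells on day 5 and 10 of 149 and 11 of 59 on day 14. Of all responding cells, monocytes or macrophages gave 42.4% and 27.6% on day 5 and 40.5% and 56.0% on day 14, while microglia gave 26.4% and 40.5% and then 8.62% and 4.52%. Of all cells placed in a class, monocytes or macrophages made up 24.0% and 16.1% on day 5 and 15.1% and 31.55% on day 14. Microglia made up 39.2% and 50.6% of them and then 9.92% and 5.79%.

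Whether the higher level on day 14 lay across a class or in few of its cells was read from the member score, the summed UMIs of the 39 genes per 10000 UMIs of a cell. The score was not thinned, so its low percentiles also depend on the UMIs per cell. In monocytes or macrophages the median score was 57.8 and 68.6 at 5 days against 213 and 231 at 14 days (63.2 ± 7.61 and 222 ± 12.3, mean and SD, n = 2 each). The 10th percentile was 16.9 and 18.7 at 5 days against 83.2 and 94.7 at 14 days, so on day 14 it lay above the day 5 median. The 10% of cells with the highest scores held 29.6% and 29.5% at 5 days against 17.7% and 17.6% at 14 days of the class's member UMIs. Cells without any core UMI made up 61.2% and 65.4% at 5 days against 11.8% and 7.57% at 14 days. The score was thus higher at each percentile given, and the member UMIs were spread over more of the cells.

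Neutrophils had the same shape, with a 10th percentile of 12.8 and 10.1 at 5 days against 91.3 and 96.0 at 14 days and a median of 42.7 and 40.5 at 5 days against 189.6 and 239 at 14 days. Their top 10% of cells held 43.5% and 34.0% at 5 days against 20.9% and 18.7% at 14 days of the member UMIs. Microglia were also higher at each of these percentiles, at a lower level: the 10th percentile was 3.95 and 0 at 5 days against 14.7 and 31.2 at 14 days, and the median was 19.96 and 18.7 at 5 days against 53.8 and 80.0 at 14 days. Of the microglia, 45 and 134 on day 5 and 0 on day 14 had under 1000 UMIs. Microglia that did not count as responding also carried more, 0.280 ± 0.00728 core UMIs per 1000 on day 5 and 0.715 ± 0.0678 on day 14 (mean and SD, n = 2 each). Such cells also carried more in monocytes or macrophages (0.359 ± 0.0235, then 1.08 ± 0.0594) and in neutrophils (0.220 ± 0.0163, then 0.913 ± 0.123). These cells were chosen by the same core count that is compared here, so each lies below the responding limit. After thinning, cells with a higher level can also fall below that limit. The comparison therefore cannot tell whether the rise lay across a class. In size, the difference in microglia that did not count as responding was 41.0% of the one over all microglia. The same ratio was 18.3% in monocytes or macrophages and 9.68% in neutrophils, in which most day 14 cells were responding. In the other classes this ratio ran from 15.3% in plasmacytoid dendritic cells to 61.65% in border-associated macrophages. It was not weighted by the share of cells that did not respond, so it is not a part of the whole difference.

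Conventional dendritic cells differed at the low end. Their 10th percentile was 20.4 and 17.6 at 5 days against 19.5 and 32.2 at 14 days, values that overlap between days, while the 90th percentile was 154 and 162 at 5 days against 242 and 289.8 at 14 days. The make-up of this class also differed between days, and the median score within its clusters is given below. In NK cells few cells held much of the score: the top 10% held 38.8% and 26.1% at 5 days against 39.9% and 43.8% at 14 days of the member UMIs, and 63.5% and 59.8% of the cells had no core UMI on day 14. The same NK cells held 11.4% and 11.5% of all UMIs of their class on day 14. Yet the NK cell score was also higher at the low end and in the middle. Its 10th percentile was 0 in both day 5 libraries against 5.03 and 6.59 at 14 days. Its median was 10.1 and 8.83 at 5 days against 15.5 and 19.7 at 14 days. NK cells were shallower on day 5, with a median of 1456 and 1150 UMIs against 2092 and 3040 on day 14. At so few UMIs a cell can score 0 while carrying the genes, and the part of depth in these percentiles was not tested. For T cells the 10th percentile was 0 and 6.53 at 5 days against 12 and 14.8 at 14 days. Their median was 17.97 and 18.6 at 5 days against 44.8 and 59.25 at 14 days. B cells without a core UMI made up 84.1% and 85.2% at 5 days against 80.2% and 79.3% at 14 days. The share held by the top 10% overlapped between days in T cells, B cells and plasmacytoid dendritic cells.

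**Figure D2:**
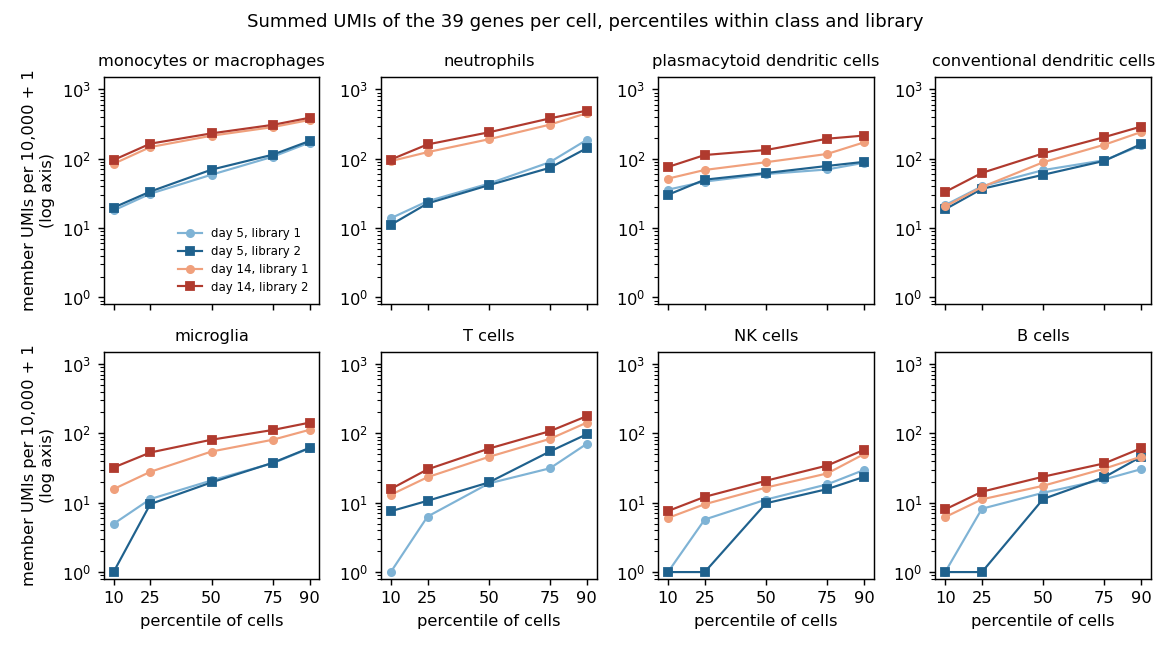
Percentiles of the member score (UMIs of the 39 genes per 10000 UMIs, log axis) in each class; each line is a library. The day 14 lines lie above the day 5 lines in every class shown except conventional dendritic cells. There the lines meet at the lower percentiles, the 10th among them.

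The make-up of the classes differed between days, so shares were also read within clusters drawn without the 39 genes. In monocytes or macrophages, cluster 13 (led by Plac8, Lyz2 and Ly6c2, genes of inflammatory monocytes) made up 24.1% and 35.5% of the class on day 5 and 67.1% and 56.8% on day 14, and 20% and 15.1% of it responded on day 5 and 68.1% and 73.1% on day 14. Cluster 12 (Ms4a7, Apoe) made up 59.5% and 44.8% and then 5.28% and 3.22%, and 6.51% and 7.54% and then 35.3% and 35% of it responded, the day 14 values from 17 and 20 cells. Cluster 15 (Gpnmb, Spp1) was already high: 70.6% and 38.5% of its 17 and 13 cells responded on day 5 and 67.3% and 63.4% on day 14. With these 3 clusters weighted by their day 5 proportions, a calculation added after seeing the data, the responding share was 13.6% and 11.3% at 5 days against 47.9% and 49.4% at 14 days, so the difference was smaller at a fixed make-up and was still present. Cluster 12 has the largest weight there, and its day 14 intervals were wide, 14.2 to 61.7% and 15.4 to 59.2%. Interferon-induced genes outside the 39 were not removed before clustering. Ifitm3, a gene of the set, was also among the leading genes of cluster 13, so make-up and response may not be independent.

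Neutrophils of day 5 also included cluster 17 (Camp, Ngp and Ltf, granule genes of immature neutrophils), 18.8% and 54.1% of the class, in which 0 of 24 and 3 of 97 cells responded; 1 such cell was found on day 14. Within cluster 8 (Cxcl2, Il1b, Mmp9) the share was 14.8% and 25% and then 60% and 76.2%. In conventional dendritic cells it was 6.49% and 8.47% and then 35.4% and 40.4% in cluster 3 (Cd209a), 13.3% and 13.9% and then 31.6% and 33.3% in cluster 11 (Xcr1) and 11.5% and 12.9% and then 16.9% and 22.8% in cluster 16 (Ccr7, a receptor of migrating dendritic cells). Microglial cluster 7 (P2ry12, Tmem119) gave 2.13% and 4.41% and then 16.2% and 34.0%, and cluster 2 (Spp1, Apoe) gave 9.09% and 4.46% and then 25.6% and 22.2%. The intervals of the days overlapped in conventional dendritic cell clusters 11 and 16, in microglial cluster 2 and in cluster 15 of the monocytes or macrophages.

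**Figure D3:**
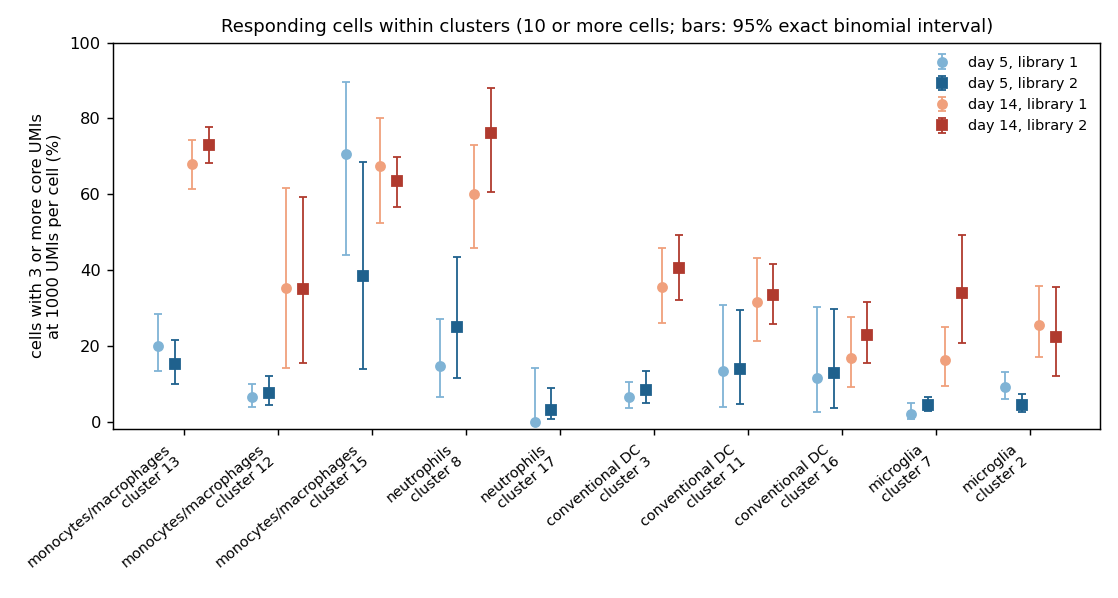
Share of responding cells in percent within clusters drawn without the 39 genes; points are libraries and bars are exact 95% binomial intervals. Cluster 15 of the monocytes or macrophages stands at 70.6 and 38.5% on day 5 already, while clusters 12 and 13 are higher on day 14 than on day 5.

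Each gene was then tested on UMI counts summed per library and class, with edgeR's quasi-likelihood test over 2 libraries a day and p-values adjusted over all genes tested in the class (threshold 0.05). Levels are CPM, counts scaled to library size, and log2 fold changes are day 14 over day 5. In summed counts, fewer cells that express a gene and less RNA of it per cell cannot be told apart. In monocytes or macrophages 39 of 39 genes rose, where 6.44% of all 8722 genes tested were called higher; the median log2 fold change was 1.89 over the 39 genes and -0.01 over all genes. In neutrophils 29 of 32 tested genes rose (background 13.1%, medians 2.33 and -0.03), and Ifitm2, Samd9l and Ifi35 were not called. With 1 library left out fewer genes were called, in the set and over all genes. The set's median log2 fold change was then 2.19 or 2.22 without 1 of the day 5 libraries. It was 2.26 or 2.37 without 1 of the day 14 libraries. In conventional dendritic cells 30 of 39 rose (background 7.62%, medians 1.04 and 0.001). In microglia 23 of 38 rose and Ifitm1 fell (background 2.89% higher and 1.07% lower, medians 1.197 and -0.01). In the other 3 of these classes 0 of the genes were called lower, where the background of lower calls was 3.21% in monocytes or macrophages, 6.26% in neutrophils and 7.21% in conventional dendritic cells.

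The smaller classes had fewer genes above the filter on low counts. NK cells had 9 of 25 tested genes higher (background 3.6%, medians 1.10 and 0.01), T cells 5 of 35 (background 0.558%, medians 1.05 and 0.05), plasmacytoid dendritic cells 4 of 22 (background 0.959%, medians 1.52 and 0.01) and B cells 1 of 8 (background 4.37%, medians 0.86 and -0.01). In these 4 classes 0 genes of the set were called lower (background 1.71%, 0.263%, 0.411% and 0.736%, in the same order). In T cells 33 of 35 genes had a positive log2 fold change and 18 had an unadjusted p under 0.05 by edgeR. These counts were not taken over all 6093 genes tested, so they have no background to be read against. Keeping cells with mixed markers gave 12 T cell calls of 37 tested, beside 77 of all 6792 genes. Leaving responding cells out of the sums gave 1 of 30, beside 22 of 5344. The B cell call, Ifi27l2a, rested on both day 14 libraries: 0 genes were called without either of them.

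**Figure D4:**
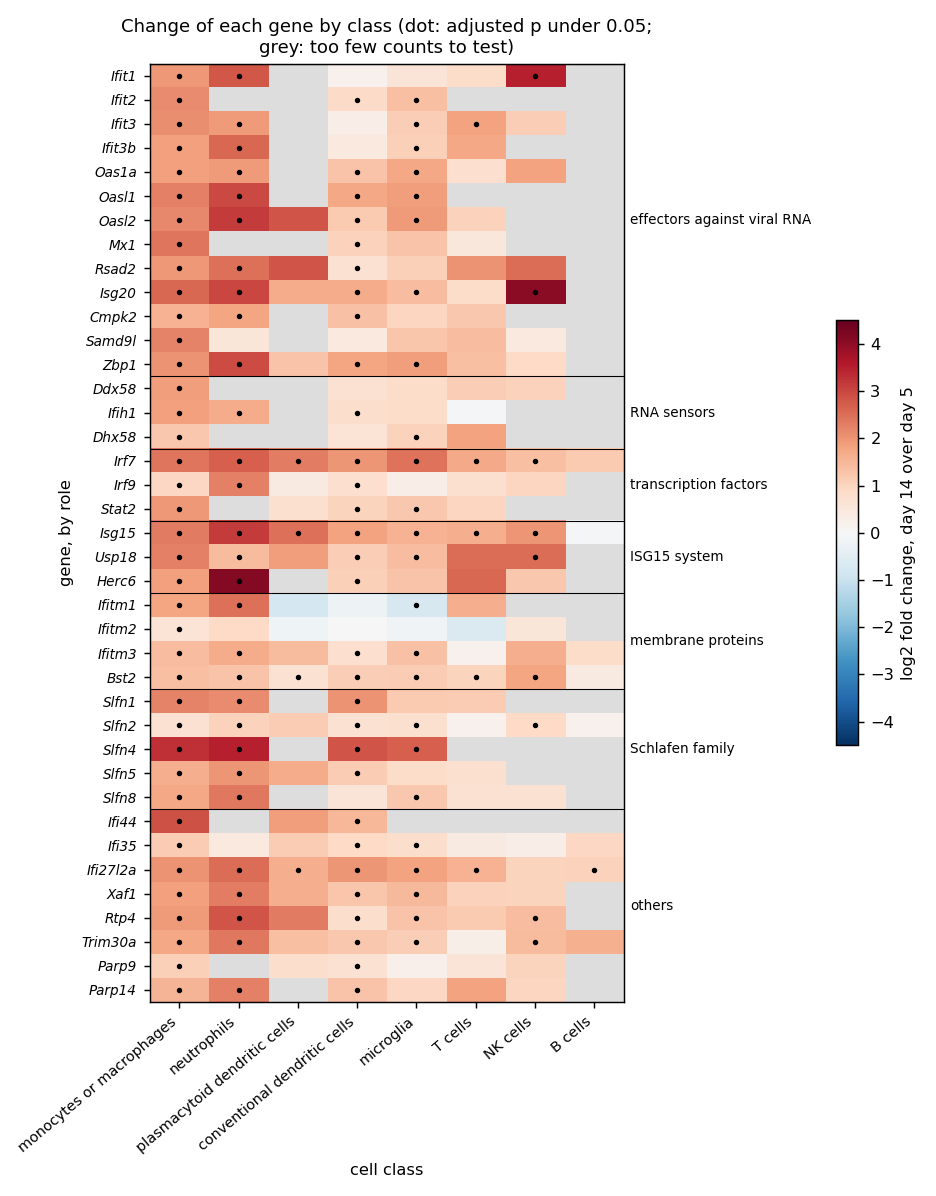
Log2 fold change (day 14 over day 5) of each of the 39 genes in 8 cell classes, with genes ordered by role; dots mark an adjusted p under 0.05 by edgeR and grey marks genes not tested. All 39 genes are dotted in monocytes or macrophages, and Irf7, Isg15, Ifi27l2a and Bst2 are dotted in 7 of the 8 classes.

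Among the transcription factors, Irf7 (ENSMUSG00000025498), which amplifies interferon production, rose in 7 classes. In monocytes or macrophages it stood at 205 and 216 CPM at 5 days against 982 and 1254 at 14 days (2.41 ± 0.140, SE, adjusted p = 1.45e-06 by edgeR). In microglia it stood at 77.8 and 90.9 CPM at 5 days against 297 and 634 at 14 days, and the day 14 libraries lay far apart (2.44 ± 0.270, SE, adjusted p = 0.000254 by edgeR). In B cells, where it was not called, it stood at 46.7 and 73.2 CPM at 5 days against 109 and 188 at 14 days, without overlap (1.19 ± 0.482, SE, adjusted p = 0.247 by edgeR). Irf9, the DNA-binding partner of Stat2, rose in 3 classes, with 44.7 and 45.3, then 88.6 and 82.7 CPM in monocytes or macrophages. Stat2, which joins Irf9 once the receptor is engaged, rose in 3 classes, with 19.9 and 26.8, then 80.1 and 97 CPM in monocytes or macrophages. The smallest called change among these 3 factors was that of Irf9 in conventional dendritic cells (0.76 ± 0.163, SE, adjusted p = 0.00834 by edgeR).

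The ISG15 system holds Isg15, a ubiquitin-like protein joined to other proteins, Herc6, the ligase that joins it, and Usp18, which removes it and damps the receptor. Isg15 (ENSMUSG00000035692) had its highest levels in neutrophils, at 377 and 317 CPM at 5 days against 2687 and 3442 at 14 days (3.14 ± 0.291, SE, adjusted p = 0.000500 by edgeR). In monocytes or macrophages it stood at 238 and 259.6 CPM at 5 days against 1104 and 1434 at 14 days (2.35 ± 0.144, SE). In B cells of the same libraries it stood at 35.0 and 101 CPM at 5 days against 62.0 and 80.7 at 14 days, overlapping between days (-0.05 ± 0.489, SE, adjusted p = 0.984 by edgeR). Herc6 had the largest log2 fold change of the set in neutrophils, at 4.54 and 7.10 CPM at 5 days against 121 and 112 at 14 days (4.12 ± 0.540, SE, adjusted p = 0.00136 by edgeR), from few counts on day 5. Usp18 rose in 5 classes, among them NK cells (5.16 and 31.7, then 101 and 99.03 CPM).

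Effectors against viral RNA rose 13 of 13 in monocytes or macrophages, 10 of 11 tested in neutrophils, 9 of 13 in conventional dendritic cells and 8 of 13 in microglia, where 6.44%, 13.1%, 7.62% and 2.89% of all genes tested were called higher, in the same order. They rose 2 of 7 tested in NK cells, 1 of 11 in T cells and 0 of 4 in plasmacytoid dendritic cells (background 3.6%, 0.558% and 0.959%), and none was tested in B cells. Ifit3, an RNA-binding protein, stood in monocytes or macrophages at 83.3 and 102 CPM at 5 days against 381 and 405 at 14 days (2.09 ± 0.139, SE, adjusted p = 2.52e-06 by edgeR). In conventional dendritic cells it stood at 98.1 and 108 CPM at 5 days against 104 and 141 at 14 days, and the second day 5 library lay above the first day 14 library (0.28 ± 0.159, SE, adjusted p = 0.283 by edgeR). Ifit1, which binds RNA with foreign caps, stood in neutrophils at 127 and 135 CPM at 5 days against 884 and 941 at 14 days (2.79 ± 0.268, SE), and in conventional dendritic cells at 53.6 and 98.3 CPM at 5 days against 70.4 and 95.5 at 14 days, again overlapping. Reads of Ifit3 and its near-identical copy Ifit3b may be split between them, so their separate levels are uncertain.

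Oasl2, of the oligoadenylate synthetase family that senses double-stranded RNA, rose in 4 classes, with 90.1 and 80.4, then 369 and 401 CPM in monocytes or macrophages and 30.0 and 42.8, then 118 and 172 CPM in microglia. Rsad2, or viperin, which makes a nucleotide that stops viral RNA synthesis, rose in neutrophils from 164 and 225 to 1144 and 1068 CPM (2.49 ± 0.275, SE, adjusted p = 0.000741 by edgeR). Isg20, an RNA exonuclease, rose in 5 classes. In NK cells Isg20 stood at 5.16 and 6.34 CPM at 5 days against 82.1 and 116 at 14 days (4.07 ± 0.603, SE, adjusted p = 0.00104 by edgeR), so both day 14 libraries were far above day 5 levels that rest on few counts. Mx1, a GTPase gene, rose in 2 classes, with 15.8 and 19, then 97.2 and 85.8 CPM in monocytes or macrophages. Zbp1, a sensor of Z-form nucleic acid, rose in 4 classes, with 46.7 and 57.7, then 155 and 194 CPM in conventional dendritic cells.

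The 3 RNA sensors of the RIG-I family all rose in monocytes or macrophages: Ddx58 (RIG-I) from 19.5 and 22.4 to 71.5 and 82.0 CPM, Ifih1 (MDA5) from 25.1 and 25.8 to 99.3 and 85.1 CPM and Dhx58 (LGP2) from 43.5 and 38.5 to 87.2 and 103 CPM. Ifih1 was also called in neutrophils and conventional dendritic cells and Dhx58 in microglia, while Ddx58 was called in no other class.

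Membrane proteins were the least uniform role. Bst2 (ENSMUSG00000046718), or tetherin, which holds budding virus at the cell surface, rose in 7 classes and had its highest level in plasmacytoid dendritic cells, at 3267 and 3076 CPM at 5 days against 5321 and 4844 at 14 days (0.68 ± 0.122, SE, adjusted p = 0.0466 by edgeR). Ifitm3, which blocks viral entry, rose in 4 classes, and at 1000 UMIs per cell it was detected in 73.4% and 76.8% of monocytes or macrophages on day 5 and in 97.2% and 96.8% on day 14. Ifitm1, a relative of Ifitm3, went in opposite directions. It rose in monocytes or macrophages (114 and 92.1, then 284 and 416 CPM) and in neutrophils (541 and 334, then 1716 and 3147 CPM). In microglia it fell, with 181 and 157 CPM at 5 days against 105 and 100.1 at 14 days (-0.71 ± 0.156, SE, adjusted p = 0.0246 by edgeR). That fall was not called by DESeq2, with the replicate block or with responding cells left out of the sums. Ifitm2 was called in 1 class, monocytes or macrophages (0.62 ± 0.111, SE).

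The Schlafen genes, which restrain growth and translation, rose 5 of 5 in monocytes or macrophages and 5 of 5 in neutrophils (background 6.44% and 13.1%). They rose 4 of 5 in conventional dendritic cells and 3 of 5 in microglia (background 7.62% and 2.89%). Of those tested, 1 of 2 rose in NK cells and 0 of 4 in T cells (background 3.6% and 0.558%). In plasmacytoid dendritic cells 0 of 2 rose and in B cells 0 of 1 (background 0.959% and 4.37%). Slfn4 stood in neutrophils at 95.4 and 97.1 CPM at 5 days against 1032 and 1166 at 14 days (3.50 ± 0.278, SE, adjusted p = 0.000245 by edgeR) and in monocytes or macrophages at 21.4 and 14.1 CPM at 5 days against 141 and 208 at 14 days (3.29 ± 0.234, SE). Slfn1 rose in monocytes or macrophages from 54.8 and 69.2 to 292 and 294 CPM. Slfn2, with a smaller change of 0.67 ± 0.130 (SE) in the same cells, was the Schlafen gene called in the most classes, 5. These genes resemble one another, so reads may be shared among them.

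Of the remaining genes, Ifi27l2a (ENSMUSG00000079017), whose protein is found at mitochondria and the nuclear envelope, had the smallest adjusted p of the set in monocytes or macrophages, T cells, microglia and conventional dendritic cells. It stood in monocytes or macrophages at 907 and 897 CPM at 5 days against 3577 and 3759 at 14 days (2.02 ± 0.107, SE, adjusted p = 8.71e-07 by edgeR). In T cells it stood at 1101 and 1080 CPM at 5 days against 2815 and 3688 at 14 days (1.57 ± 0.148, SE), and in B cells at 607 and 668 CPM at 5 days against 1124 and 1543 at 14 days (1.05 ± 0.203, SE, adjusted p = 0.0199 by edgeR). NK cells were the tested class in which it was not called. Rtp4, a receptor transporter protein, rose in 5 classes, among them neutrophils (99.9 and 109, then 694 and 815 CPM), and Trim30a, of the tripartite motif family, rose in 5, with 73.9 and 89.6, then 272 and 276 CPM in monocytes or macrophages. Over the set, 4 genes were called higher in 7 classes, 5 in 5, 8 in 4, 14 in 3, 5 in 2, and 3 (Ddx58, Samd9l and Ifitm2) in 1.

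**Figure D5:**
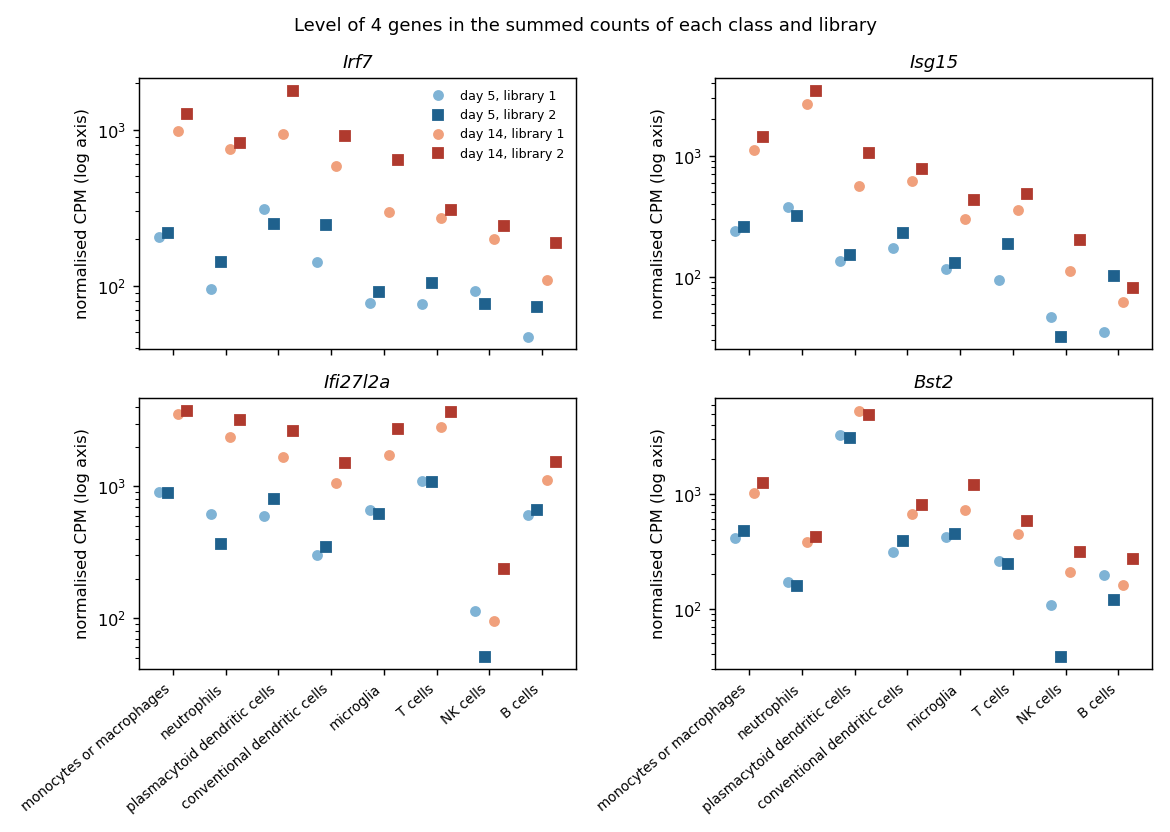
Normalised CPM (log axis) of Irf7, Isg15, Ifi27l2a and Bst2 in the summed counts of 8 classes; each point is a library. Day 14 points lie above day 5 points in the called classes, and overlap them for Isg15 and Bst2 in B cells and for Ifi27l2a in NK cells.

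Whether classes differed in their change was tested as a class by day interaction with the library as a block. Counts were summed over a class, so a different make-up of its clusters and a change within them cannot be told apart here. Between monocytes or macrophages and microglia, 7 of 39 genes rose more in the former (Isg15, Usp18, Isg20, Ifitm1, Ifitm2, Ifit1 and Ifit3), beside 1.51% of all 9671 genes, and 0 were called the other way, beside 0.91%. The log2 difference was 2.45 ± 0.200 for Ifitm1 (SE, adjusted p = 1.6e-07 by edgeR), 1.31 ± 0.254 for Ifit1 and 0.79 ± 0.158 for Isg15. Between monocytes or macrophages and conventional dendritic cells, 20 of 39 genes rose more in the former, beside 5.44% of 9167 genes, and 0 in the latter, beside 2.71%; among the 20 were Ifitm1 (2.00 ± 0.129), Ifit3 (1.82 ± 0.173) and Samd9l (1.77 ± 0.269). Between T cells and NK cells 1 of 33 genes differed, Isg20, whose change was larger in NK cells (T cells minus NK cells -3.24 ± 0.855, SE, adjusted p = 0.0442 by edgeR), beside 0.82% of 5730 genes; 0 changed more in T cells, beside 0.332%. No gene was called there without TMM scaling, without the second day 5 library or without the second day 14 library.

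Beyond the 39 genes, the ligands were hardly detected. Of 9 type I and type III interferon genes searched, 7 had no UMI in the 10841 cells kept, Ifnk had 1 and Ifnb1 had 37 in 9 cells. Of the Ifnb1 UMIs 32 were in the second day 5 library, 24 of them in 1 microglial cell and 5 in another, and these 2 cells held 28 and 19 core UMIs at 1000 UMIs. The 5 cells with a single Ifnb1 UMI on day 14 held 6 to 17 core UMIs. Levels of the ligands could not be compared between days from so few UMIs. Ifng, the type II ligand, fell in NK cells, which secrete it, with 191 and 228 CPM at 5 days against 99.6 and 63.4 at 14 days (-1.38 ± 0.270, SE, adjusted p = 0.00625 by edgeR).

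Neither receptor gene was called in a class. Ifnar1 stood at 70.9 and 69.2 CPM at 5 days against 82.2 and 84.1 at 14 days in monocytes or macrophages, and Ifnar2 at 179.8 and 159.8 CPM at 5 days against 231 and 198 at 14 days. Of the 7 receptor and kinase genes 0 were called higher in any class, and Ifngr1, a chain of the interferon gamma receptor, fell in NK cells and in conventional dendritic cells (634 and 585, then 320.5 and 354 CPM). Irf8, a factor of dendritic cell development, rose in microglia and in conventional dendritic cells (439 and 663, then 1058 and 1247 CPM). Of 11 sensors and adaptors, Tmem173 (STING) and Mb21d1 (cGAS) rose in monocytes or macrophages, and 0 rose in the other classes.

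Of 12 genes known chiefly as interferon gamma targets, 10 of 11 tested rose in monocytes or macrophages, 6 of 11 in conventional dendritic cells, 5 of 6 in neutrophils and 4 of 11 in microglia (background 6.44%, 7.62%, 13.1% and 2.89%). In NK cells 1 of 8 tested rose, in T cells 0 of 10, in plasmacytoid dendritic cells 0 of 1 and in B cells 0 of 1 (background 3.6%, 0.558%, 0.959% and 4.37%). Cxcl10, a chemokine that draws T cells and is also induced by type I interferon, rose in monocytes or macrophages from 94.6 and 89.6 to 323 and 446 CPM (2.07 ± 0.163, SE, adjusted p = 8.65e-06 by edgeR). Irgm1, a GTPase of cell-autonomous defence, rose in the same cells from 51.8 and 59.9 to 174 and 170.2 CPM, and Cd274, which encodes PD-L1, rose in neutrophils from 27.3 and 14.2 to 121 and 154 CPM. Among negative regulators, Socs3 fell in conventional dendritic cells (312 and 326, then 134 and 155 CPM) and rose in neutrophils (149.9 and 78.1, then 295 and 436 CPM). The part of interferon gamma in the change of the 39 genes was not tested.

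Markers of other cells also differed between days. Over 8 microglial markers, monocytes or macrophages carried 2056 and 2074 CPM at 5 days against 928 and 924 at 14 days, and 1 of the 8 was at 0 in the first day 14 library. Over 6 T cell markers they carried 5.36 and 2.52 CPM at 5 days against 54.3 and 53.1 at 14 days. Neutrophils carried 191074 and 291299 CPM at 5 days against 62760.2 and 83594 at 14 days over their own 10 markers and 322 and 189 CPM at 5 days against 548 and 975 at 14 days over 7 markers of border-associated macrophages. The part of these differences in the results for the 39 genes was not tested.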

How the data were processed

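The deposited files hold raw UMI counts per gene and cell barcode, made by the authors with Cell Ranger 3.0.1 and Seurat 2.3.4 on GRCm38, per the submitters' processing notes; what each tool did, the annotation and the use of strand are not given in the sources used here. Single Cell 3' v2 reagents were used, per the labels' protocols. Cells under 200 genes or over 10% mitochondrial UMIs were left out. Classes came from scores of 83 marker genes, none of them in the set; the limits of the gates were chosen after seeing the data. No doublet caller was run, and cells with mixed markers were left out. Clusters (scanpy 1.11.5, Leiden, resolution 1) were drawn without the 39 genes.

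Counts were summed per library and class and tested with edgeR 4.0.16 (quasi-likelihood, TMM, low counts filtered; Benjamini-Hochberg adjustment), with DESeq2 1.42.0 as an alternative, and the code was tested on simulated data. SEs were derived from the F statistic. The members and gene lists were chosen with earlier results of these data known. Named genes are, per class, the 8 called members with the smallest adjusted p and those called in the most classes, plus up to 6 called pathway genes; other genes named for their role were chosen after their values were seen. Of the pathway genes this rule names, 1 is not reported here. Same-numbered libraries of the days did not pair.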

Additional observations from a re-analysis of the deposited data

Results flagged for a closer look

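Each of these results is a difference between 2 cell classes in their change between days, by the class by day interaction in edgeR with the library as a block. Between monocytes or macrophages and microglia 7 genes differed, and the largest difference was that of Ifitm1, whose log2 fold change was 2.45 higher in monocytes or macrophages, since it rose there and fell in microglia. The fall in microglia was not called by DESeq2 or with the replicate block. Between monocytes or macrophages and conventional dendritic cells 20 genes differed, and Ifitm1 again differed most, by 2.00. Between T cells and NK cells 1 gene differed, Isg20, by -3.24 as T cells minus NK cells. The counts of monocytes or macrophages enter both of the first comparisons, so these are not independent.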

How the results depend on the processing

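Of the alternatives tried, 61 of 88 counts of genes called higher, 11 of 15 interaction counts, 65 of 89 differences in responding share and 40 of 48 differences in median score stayed within 1.5 times (counts) or 1 SD (differences) of the value first given. Genes called higher changed as follows. T cells (5) had 9 with no filter on low counts, 8 with the replicate block, 9 with classes from Leiden clusters, 12 with mixed cells kept, 1 with responding cells left out and 3 by DESeq2. NK cells (9) had 16 with no filter, 14 with Leiden classes and 5 by DESeq2. B cells (1) had 0 without TMM, with the block and with Leiden classes, and 3 with mixed cells. Neutrophils (29 of 32 tested) had 11 of 15 tested with responding cells left out. In every class that setting takes away counts of the set by construction. Plasmacytoid dendritic cells (4) had 17 with no filter, 8 with the block, 10 with Leiden classes, 7 with mixed cells and 2 with responding cells left out. The T cell against NK cell count (1) was 0 without TMM. Leaving out 1 library gave 5 to 8 in T cells, 9 to 13 in NK cells, 0 to 2 in B cells, 12 to 22 in neutrophils, 18 to 28 in microglia, 39 to 39 in monocytes or macrophages, 25 to 33 in conventional and 4 to 12 in plasmacytoid dendritic cells, and 5 to 9, 0 to 2 and 15 to 20 for the interactions with microglia, between T cells and NK cells, and with conventional dendritic cells. A lone library is then assumed to vary like the others. In neutrophils fewer genes were then also called higher over all genes.

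Differences in responding share (day 14 minus day 5, percentage points) were 11.9 in T cells, 7.44 in NK cells, 2.41 in B cells, 58.8 in neutrophils, 19.7 in microglia, 53.4 in monocytes or macrophages, 21.9 in conventional and 32.2 in plasmacytoid dendritic cells. With 2 or more core UMIs they were 18.4 in T cells, 8.81 in NK cells, 31.8 in microglia, 59 in monocytes or macrophages and 28.1 in conventional dendritic cells. With 5 or more they were 3.51 in NK cells, -0.351 in B cells, 49 in neutrophils, 7.11 in microglia, 36.3 in monocytes or macrophages, 11.9 in conventional and 12.7 in plasmacytoid dendritic cells. Thinning to 2000 UMIs with the limit raised to 6 core UMIs gave 5.42 in NK cells, 80.6 in neutrophils and 18.2 in conventional dendritic cells. Only cells with 2000 or more UMIs enter there. The 57 and 42 neutrophils of day 14 had medians of 1504 and 1563 UMIs, so most were left out. The shares among the rest were 68.8% and 100%. Counting cells above the 95th percentile of day 5 cells in all 39 genes, which by construction keeps the day 5 share low, gave 14.3 in NK cells, 33.6 in monocytes or macrophages and 10.9 in conventional dendritic cells. Leiden classes gave 49.7 in neutrophils. Added after seeing the data, the day 5 make-up of clusters gave 48.2 in neutrophils, where it is the same calculation as cluster 8 alone (entered as 2 of the 89 above), 36.2 in monocytes or macrophages and 26.6 in conventional dendritic cells. Leaving out 1 library gave 7.24 to 16.5 in T cells, 6.43 to 8.45 in NK cells, -0.00427 to 4.82 in B cells, 50.5 to 67 in neutrophils, 15 to 24.4 in microglia, 50.8 to 56 in monocytes or macrophages, 19.4 to 24.3 in conventional and 21.6 to 42.7 in plasmacytoid dendritic cells. Without Ifitm1, Ifitm2, Ifitm3, Bst2, Slfn2 and Ifi27l2a the difference in median score was 10.5 in T cells, 4.26 in NK cells, 4.44 in B cells, 76.8 in neutrophils, 15.4 in microglia, 59.9 in monocytes or macrophages, 19 in conventional and 21.7 in plasmacytoid dendritic cells, from scores over fewer genes. The cause of the other changes was not tested.

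The numbers of the libraries do not pair them: correlations of the deviations of same-numbered libraries were -0.139 to 0.0346. With the replicate block the counts were 39 in monocytes or macrophages, 29 in neutrophils, 32 in conventional dendritic cells, 16 in microglia and 11 in NK cells. Depth limits the shares of T, NK and B cells on day 5, with 44 to 99 cells a library.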

Other observations

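Cells outside the classes also had more responding cells at 14 days. Among cells that met no gate, 9.52% and 10.7% responded on day 5, while 19.1% and 38.1% did on day 14. Among cells with markers of several lineages, 2.78% and 10.1% responded on day 5, while 28.3% and 37.6% did on day 14. In both groups of cells the second day 14 library had the highest share.

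The set's detection did not track Ifnb1 in each of the cells that held it. A microglial cell with 1 Ifnb1 UMI had 0 core UMIs at 1000 UMIs, and a border-associated macrophage with 2 had 1, both in the second day 5 library. The microglial cell with 24 Ifnb1 UMIs, of 2744 in all, had a member score of 343 per 10000.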
